A study of Mus musculus with 12 samples.

Results

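The comparison described here set 3 arrays of estradiol-treated mouse uterus against 3 arrays of oil-treated mouse uterus. These 6 arrays were taken from a series of 12, the other 6 being oviducts of the same 2 treatments, and they were compared over all 19938 genes with 1 gene symbol on the array. Mice in the preimplantation phase of pregnancy received 17β-estradiol (E2, the main ovarian estrogen) by subcutaneous injection on days 0.5, 1.5 and 2.5 after mating. The dose was 10 µg/kg in 100 µl of sesame oil, and the oil group received the oil with no E2 (0 µg/kg). The uterine horns were flushed and frozen on day 3.5, so that every array measures whole tissue from a pregnant horn with the luminal contents washed out. Both groups were pregnant and carried their own ovarian hormones; strain and age are not given in the labels used here. The labels call the 3 arrays of each group biological replicates. Every p-value below rests on the spread within groups pooled over all 12 arrays, oviducts included.

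On the day before implantation the mouse uterus is under the control of progesterone. Luminal and glandular epithelial cells have stopped dividing, stromal cells divide, and the epithelium signals to the stroma through Indian hedgehog. Estrogen acts through the receptor Esr1, makes the epithelium of an unprimed uterus proliferate and secrete, and in early pregnancy rises briefly to make the uterus receptive. Levels are given as log2 of the probe set intensity, so that 1 unit is a 2-fold difference, and each gene has 1 probe set. A gene is said to have risen or fallen where limma's adjusted p (Benjamini-Hochberg over all 19938 genes) was below 0.05. As horns were measured whole, fewer cells of a type and less RNA per cell cannot be told apart.

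After E2, 2478 genes were higher (12.4% of those tested) and 2854 were lower (14.3%), together 26.7%. At 2-fold or more the counts were 405 higher (2.03%) and 281 lower (1.41%), and at 8-fold or more they were 34 and 6. The 3 E2 and 3 oil values did not overlap for 8071 genes (40.5%), and 2441 of the genes that rose and 2815 of those that fell were among them. Most changes were small: the median size was 0.50 among genes that rose and 0.43 among genes that fell, and the median over all genes was -0.0007. Array medians lay between 89.5 and 92.9 on the linear scale, and within-group correlations between uterus arrays ran from 0.988 to 0.996. The third oil array stood apart. For 177 genes it lay over 1 log2 unit from the average of its companions, against 8 to 45 genes on the other 5 uterus arrays, and its values are given beside the gene groups in which it stood out most. Gene list counts without it come from a fit that left out the third oil oviduct array as well. That fit called 2694 genes higher and 2898 lower, against 2237 and 2440 with only the third oil uterus array left out. Transcripts of Y-linked genes, which a female organ lacks, read up to 7.5 on the 12 arrays for Sry and up to 5.36 for the others. A group mean below 7.5 is therefore uncertain, and the size of a fold measured against it with it: this held for 303 of the 405 genes that rose 2-fold and 207 of the 281 that fell 2-fold. The labelled tissue was checked on its markers. The uterine homeobox gene Hoxa11 read 9.56 to 9.61 in the oil arrays and the smooth muscle myosin Myh11 11.02 to 11.58. The 7 embryo markers averaged 5.09 to 5.30 on each array and none of them passed the test.

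The furthest rise was that of Clca1, a secreted metalloprotease of mucus-producing epithelia. It read 5.51, 5.80 and 5.45 on the oil arrays and 12.34, 12.24 and 12.50 on the E2 arrays, a difference of 6.78 (SE 0.70, adjusted p = 3.4e-05). Its wide error is that of the pooled fit over all 4 groups, as the uterine values themselves span less than 1 unit per group. The amine oxidase Aoc1, which degrades histamine and diamines, went from 5.59 to 5.77 in oil to 10.82 to 11.55 after E2 (difference 5.61, SE 0.16, adjusted p = 4.6e-09). Both genes read below 7.5 on every oil array and above 10.8 on every E2 array.

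The antibacterial iron-binding protein lactoferrin (Ltf), the classic estrogen-induced protein of the mouse uterus, read 6.76, 6.73 and 6.31 in oil and 12.12, 11.99 and 12.05 after E2. The siderophore-binding lipocalin Lcn2 read 7.24, 7.04 and 7.87 in oil and 12.60, 12.37 and 12.61 after E2. In neither gene did the groups come near each other, and the third oil array was the lowest for Ltf and the highest for Lcn2. The gap junction gene Gjb2 (4.12), the complement genes Cfb (3.93) and Cfi (3.77), the matrix protease Mmp7 (3.65) and the epithelial calcium channel Trpv6 (3.60) followed, with adjusted p of 3.8e-05 or less. Tmem45b and Inmt, whose product methylates indoleamines, also rose by over 3.5 units, but both were pulled down in the third oil array. Inmt read 7.82, 8.52 and 5.60 in oil and 10.99, 11.12 and 10.67 after E2 (difference 3.61, SE 0.59). Its call held with that array left out, and the size of its change without the array is not given here.

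**Figure D1:**
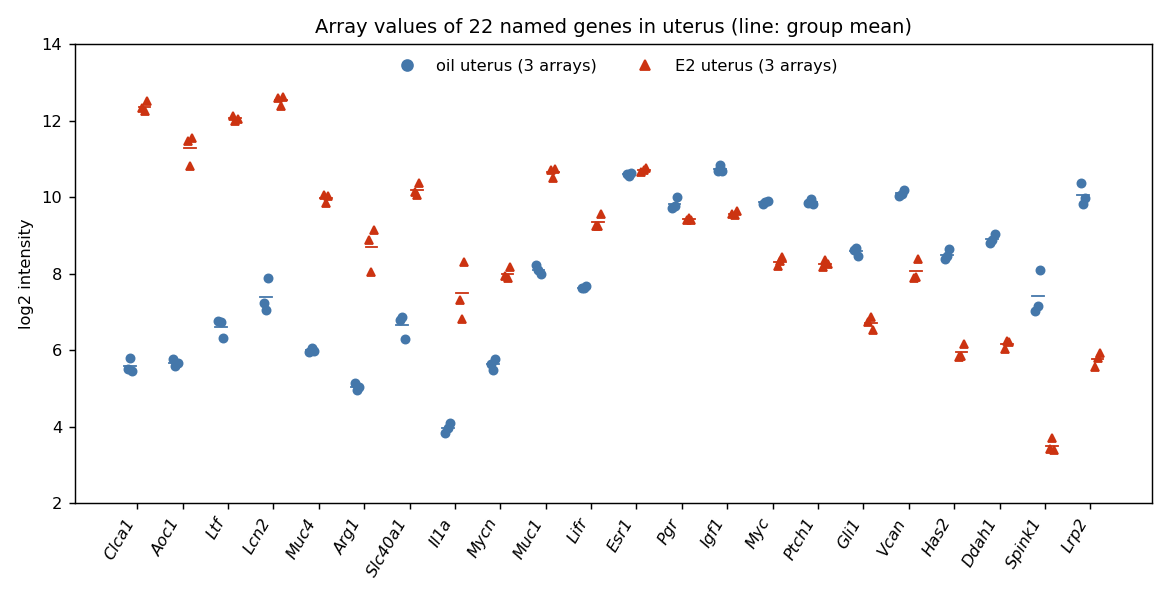
Log2 intensity (vertical axis) of 22 genes on each of the 3 oil arrays (blue circles) and 3 E2 arrays (red triangles) of uterus; short lines are group means. Clca1, Aoc1, Ltf and Lcn2 lie more than 4 units apart between the groups, Esr1 lies within 0.2 units across all 6 arrays, and Lrp2 shows the widest fall.

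The steepest fall was that of Lrp2 (megalin), an endocytic receptor of absorptive epithelia. It read 10.38, 9.82 and 9.97 on the oil arrays and 5.57, 5.79 and 5.91 on the E2 arrays, a difference of -4.30 (SE 0.23, adjusted p = 2.7e-07). The trypsin inhibitor Spink1, made by uterine glands, read 7.03, 7.16 and 8.09 in oil and 3.41, 3.72 and 3.40 after E2. The E2 values of both genes lie near or below the Y-linked background, so the size of these folds is uncertain.

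Several large falls came from genes with clear signal in oil. Ddah1, which breaks down asymmetric dimethylarginine, an inhibitor of nitric oxide synthase, read 8.81, 8.86 and 9.04 in oil and 6.02, 6.24 and 6.20 after E2 (difference -2.75, SE 0.08, adjusted p = 4.6e-09). Its t statistic was the most extreme of all genes that fell. Norrin (Ndp), a secreted ligand of the Frizzled 4 receptor, went from 9.05 to 9.44 in oil to 6.44 to 6.68 after E2. The imprinted gene Mest fell by 2.49 (SE 0.18), the aldolase Npl of sialic acid breakdown by 3.70 (SE 0.21) and the secreted factor Angptl7 by 3.32 (SE 0.14). The E2 means of Ddah1, Ndp, Mest, Npl and Angptl7 lay below 7.5, so the size of these folds is uncertain as well. Slc2a3, a high-affinity glucose transporter, read 10.58, 10.38 and 10.71 in oil and 8.14, 8.28 and 8.54 after E2, a fall of 2.24 (SE 0.16) in which both groups were well above background.

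With both group means at log2 8 or above, 65 genes rose and 39 fell by 2-fold or more, and for these the size of the fold is the least affected by background. The cell surface mucin Muc1 led the rises. It read 8.23, 8.08 and 8.0 in oil and 10.72, 10.51 and 10.72 after E2, a difference of 2.55 (SE 0.12, adjusted p = 1.0e-07). The redox protein Prxl2a rose by 2.28 (SE 0.09), the adhesion proteins Ceacam1 and Alcam by 2.25 and 1.70, the carbonyl reductase Cbr2 by 1.92, and xanthine dehydrogenase Xdh by 1.62 (SE 0.07). Among the falls, Nt5dc2 changed by -2.15 (SE 0.10), the monoamine oxidase Maob by -2.03 (SE 0.21), the interleukin 25 receptor Il17rb by -2.08 (SE 0.20), the connective tissue growth factor Ccn2 by -1.96 (SE 0.24) and the junction protein Jam2 by -1.58 (SE 0.14).

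The receptors that carry the hormone signal moved little. Esr1 read 10.60, 10.56 and 10.64 in oil and 10.66, 10.70 and 10.75 after E2, a difference of 0.10 (SE 0.06, adjusted p = 0.23). The progesterone receptor Pgr read 9.70, 9.76 and 9.99 in oil and 9.39, 9.45 and 9.41 after E2, a difference of -0.40 (SE 0.15, adjusted p = 0.079). The 6 values of both genes did not overlap between groups, as held for 40.5% of all genes, and neither passed the test. Of the 16 measured steroid receptors and cofactors 3 rose and 1 fell (25%, against 26.7% of all genes). Greb1, a cofactor of the estrogen receptor and itself one of its best known target genes, rose by 1.42 (SE 0.12) from 6.74, 6.86 and 6.88 to 8.20, 8.15 and 8.39. The coactivator Ncoa3 rose by 0.46, the mineralocorticoid receptor Nr3c2 by 0.57, and the receptor chaperone Hsp90aa1 fell by 0.82.

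Enzymes that make or inactivate steroids were split, with 4 higher and 5 lower of 23 (39.1%, against 26.7% of all genes). Hsd11b2, which inactivates glucocorticoids, read 10.54, 10.63 and 10.67 in oil and 9.47, 9.33 and 9.58 after E2 (difference -1.16, SE 0.11). Cyp1b1, which hydroxylates estrogens, fell by 1.77 (SE 0.27). Hsd17b2, which oxidises estradiol to estrone, rose by 0.86 (SE 0.13) at levels of 5.15 to 6.33, and Akr1c14 and Hsd17b11 rose by 1.28 and 0.88. Lists of genes known to respond to the hormones in the uterus were also counted. Of 28 genes known as estrogen-induced 18 rose and 4 fell (64.3% and 14.3%, median 1.21), against 12.4% and 14.3% of all genes. Of 24 genes known to depend on progesterone 6 rose and 12 fell (25% and 50%, median -0.39). Both lists were chosen with earlier results of these data known. Their largest changes, 6.78 and -4.30, are those of Clca1 and Lrp2 named above, so the counts are no independent check of the response.

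Genes of DNA synthesis fell as a whole group. All 40 measured genes of DNA replication were lower after E2, against 14.3% of all genes, with changes from -0.30 to -1.81 and a median of -0.77. Mcm3, a subunit of the replicative helicase, read 7.35, 7.48 and 7.55 in oil and 6.11, 6.34 and 6.43 after E2 (difference -1.17, SE 0.09, adjusted p = 5.4e-06). Its partners Mcm5 and Mcm4 fell by 1.29 and 1.24, the polymerase subunit Pole by 1.81 (SE 0.21), and thymidylate synthase Tyms by 1.34 (SE 0.14). The mean over the 40 genes was 7.85, 7.92 and 7.60 on the oil arrays and 6.88, 6.96 and 7.04 on the E2 arrays, so that the groups stayed apart although the third oil array was lower than the others in 35 of the 40 genes. With that array and the third oil oviduct array left out, all 40 were still called lower, with a median of -0.88.

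Mitosis genes fell further but less evenly. Of 48 genes of the spindle, kinetochore and mitotic entry, 43 fell and none rose (median -1.18), and 30 fell by 2-fold or more. The checkpoint kinase Bub1 read 8.67, 8.92 and 7.5 in oil and 6.12, 6.39 and 6.98 after E2, a difference of -1.87 (SE 0.40, adjusted p = 0.0045). Topoisomerase Top2a fell by 1.75 (SE 0.30), cyclin Ccna2 by 1.68 (SE 0.32) and the kinetochore protein Cenpn by 1.58 (SE 0.23). All 48 genes were lower in the third oil array than in the mean of the other oil arrays, with a median displacement of -0.91. Without that array 47 genes fell, 1 rose and the median was -1.48, and its part in the counts was otherwise not tested. The list means show the same array between the groups: 8.03, 8.31 and 7.29 in oil against 6.64, 6.64 and 7.0 after E2.

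**Figure D2:**
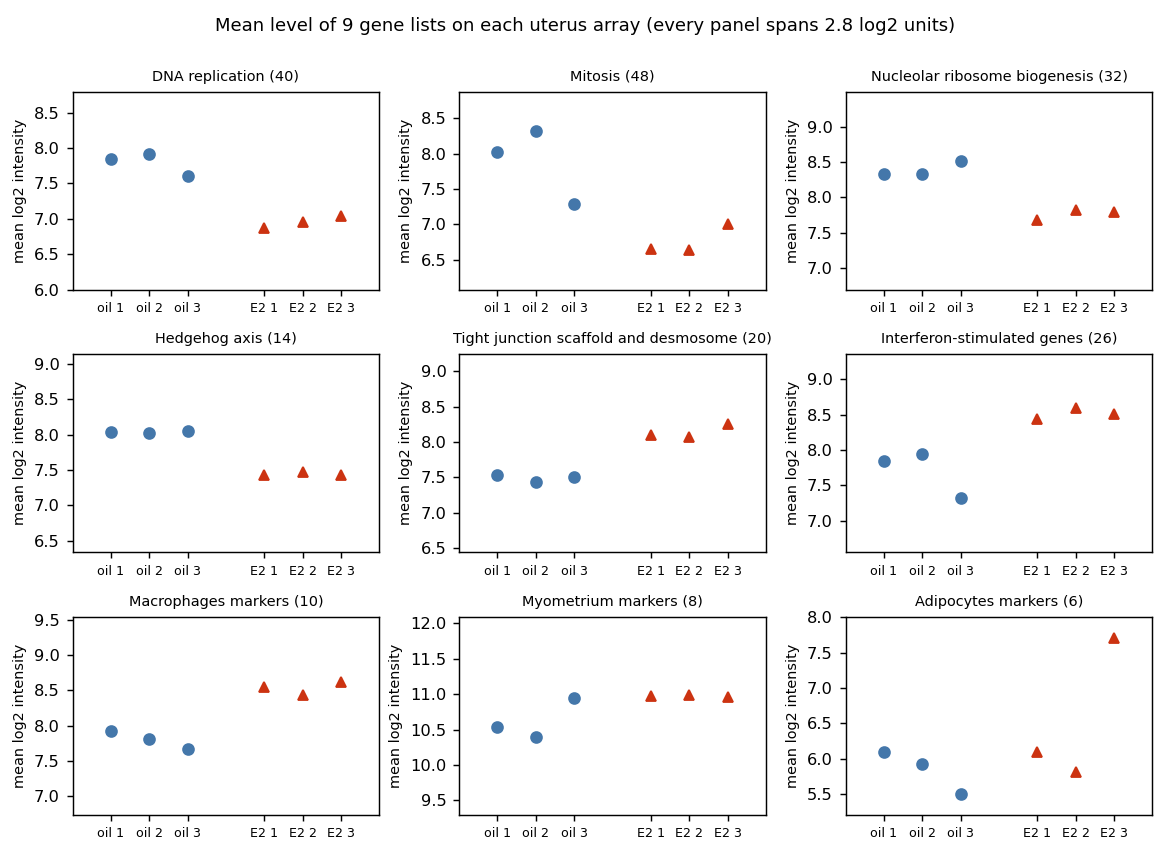
Mean log2 intensity of 9 gene lists on each uterus array (oil blue circles, E2 red triangles; the number of genes in brackets; every panel spans 2.8 units). The replication, nucleolar, hedgehog and junction lists separate the groups on every array, the mitosis and interferon lists place the third oil array apart from the other oil arrays, and the adipocyte list is high on the third E2 array only.

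Regulators of the G1 phase showed fewer calls, with 3 higher and 14 lower of 28. The growth regulator Myc read 9.82, 9.88 and 9.91 in oil and 8.19, 8.32 and 8.42 after E2, a fall of 1.55 (SE 0.08, adjusted p = 2.2e-07). Its relative Mycn moved the other way, from 5.63, 5.47 and 5.77 to 7.93, 7.90 and 8.18 (difference 2.38, SE 0.11). For both genes the oil and E2 values lay well apart. Cyclins Ccne2, Ccnd2 and Ccne1 fell by 1.54, 0.98 and 0.89, the replication-phase repressor E2f8 by 1.68 (SE 0.20), while the kinase Cdk6 and the cell cycle inhibitor Cdkn1b rose by 0.44 and 0.34.

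Genes that supply growing cells with ribosomes were lower as well. Of 32 genes of nucleolar ribosome biogenesis 29 fell, none rose and the median was -0.62. Dyskerin (Dkc1), which modifies ribosomal RNA, read 8.89, 9.04 and 8.95 in oil and 7.60, 7.71 and 7.83 after E2 (difference -1.24, SE 0.08, adjusted p = 5.7e-07). Nop58, Nop56 and Gnl3 fell by 0.97, 0.91 and 0.92. In this list the third oil array was higher than the others in 28 of 32 genes (median displacement 0.19), the reverse of its position for mitosis, and 28 genes fell without it. Proteins of the finished ribosome had fewer calls: 4 of 60 genes of cytosolic ribosomal proteins fell and none rose (median -0.04). Of 17 aminoacyl-tRNA synthetases, which charge tRNAs for translation, 13 fell and 1 rose (median -0.39), led by Wars at -0.69 (SE 0.08). Of 77 genes of mitochondrial ribosomal proteins 23 fell and 2 rose (32.5%, against 26.7% of all genes, median -0.18).

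Enzymes that make serine, glycine, proline and one-carbon units for nucleotides fell in 15 of 17 cases (median -0.60). Mthfd1 of the cytosolic folate cycle read 8.60, 8.54 and 8.56 in oil and 7.10, 7.37 and 7.32 after E2 (difference -1.30, SE 0.10). Its mitochondrial relative Mthfd2 fell by 1.41 (SE 0.13) and asparagine synthetase Asns by 1.09 (SE 0.10). The one member that rose was the branched-chain aminotransferase Bcat1, from 9.94, 9.94 and 9.66 to 11.38, 11.40 and 11.51 (difference 1.59, SE 0.17). Sterol and fatty acid synthesis (14 lower and 3 higher of 26, median -0.37; the third oil array higher in 21 of 26, 13 lower and 3 higher without it) and the unfolded protein response (13 lower and 2 higher of 28, median -0.28) leaned the same way. In the unfolded protein list the third oil array was the higher one for all 28 genes (median displacement from the other oil arrays 0.20), and 13 were lower and 4 higher without it. Oxidative phosphorylation (17 lower and 6 higher of 91) and the proteasome (15 lower and 4 higher of 50) had medians of -0.05 and -0.14. Their shares of called genes were 25.3% and 38%, against 26.7% of all genes.

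**Figure D3:**
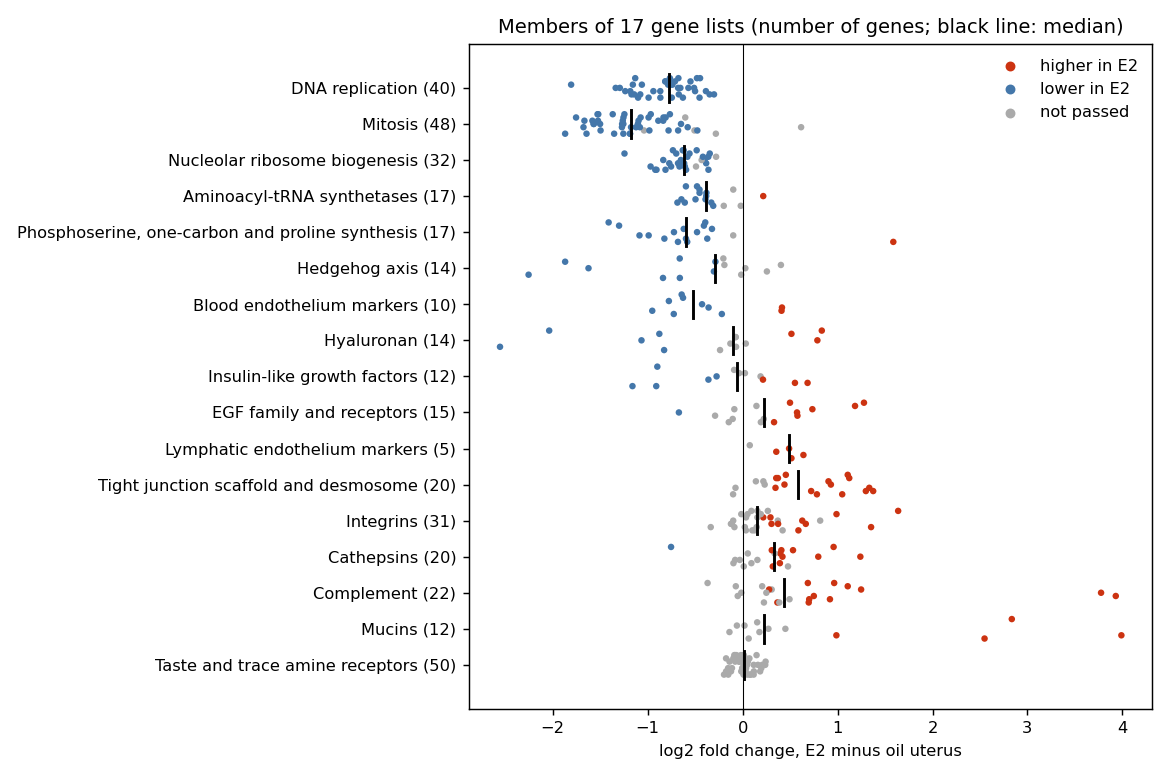
Log2 fold change of every measured member of 17 gene lists, E2 minus oil uterus (horizontal axis), with genes that rose in red, genes that fell in blue and genes that did not pass in grey; black lines are list medians. Replication, mitosis and nucleolar lists lie to the left of 0, and junction, cathepsin and complement lists mainly to the right. The taste and trace amine receptors, which had no call in 50 genes, show the width of a list of low signal with no call.

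The promoters of the mitosis genes were read for short motifs, since these genes moved together. RefSeq windows of 250 bases before to 50 bases after the start (build GRCm38.p6) were matched for 15563 of the 19938 genes. A cell cycle homology region (CHR, letters TTTGAA on either strand), to which the DREAM and MuvB complexes bind, was found in 25 of 38 mitosis genes with a window (65.8%), against 17.3% of all genes with a window. CCAAT boxes (letters CCAAT on either strand, bound by NF-Y) were found in 76.3% against 41.7%, and both motifs in 57.9% against 7.94%. DNA replication genes held a CHR in 18.2%, nucleolar genes in 7.41% and olfactory receptor genes, which are not expressed in uterus, in 37.2%. The 250 bases before the start of 4 mitosis genes that fell (chosen after the values were seen) are shown 5′ to 3′ on the gene's strand because they hold both motifs, which are in capitals (CCAAT reads ATTGG and TTTGAA reads TTCAAA where it lies on the other strand). They are Top2a (chr11:99024190-99024439, minus strand), Cenpn (chr8:116921490-116921739, plus strand), Cdk1 (chr10:69352913-69353162, minus strand) and Kif11 (chr19:37376132-37376381, plus strand).
Top2a: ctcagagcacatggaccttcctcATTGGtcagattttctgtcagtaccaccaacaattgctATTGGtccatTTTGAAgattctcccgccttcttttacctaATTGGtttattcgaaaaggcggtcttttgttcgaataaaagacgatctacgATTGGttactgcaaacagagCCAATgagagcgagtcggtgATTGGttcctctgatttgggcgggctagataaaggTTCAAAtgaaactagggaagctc
Cenpn: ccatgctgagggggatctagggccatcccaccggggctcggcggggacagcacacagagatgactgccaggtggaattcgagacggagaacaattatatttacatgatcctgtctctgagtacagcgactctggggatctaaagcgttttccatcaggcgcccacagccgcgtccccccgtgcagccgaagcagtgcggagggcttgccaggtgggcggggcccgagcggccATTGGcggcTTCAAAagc
Cdk1: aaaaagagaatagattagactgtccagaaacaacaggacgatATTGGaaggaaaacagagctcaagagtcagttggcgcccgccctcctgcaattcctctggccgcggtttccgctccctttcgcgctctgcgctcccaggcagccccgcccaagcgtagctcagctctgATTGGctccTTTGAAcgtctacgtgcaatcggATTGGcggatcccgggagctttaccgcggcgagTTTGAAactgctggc
Kif11: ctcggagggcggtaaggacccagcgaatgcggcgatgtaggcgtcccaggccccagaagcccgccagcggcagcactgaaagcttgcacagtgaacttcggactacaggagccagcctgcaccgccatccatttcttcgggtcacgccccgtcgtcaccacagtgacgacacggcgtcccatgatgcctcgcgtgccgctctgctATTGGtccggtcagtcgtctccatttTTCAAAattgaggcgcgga
In all 4 the motif nearest to the start is a CHR, with a CCAAT box upstream of it. Top2a holds 6 CCAAT boxes and 2 CHR motifs in this stretch and fell by 1.75, and Kif11 holds 1 of each and fell by 1.57. A match describes these letters and is no measurement of binding.

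Motifs were also counted for the genes that changed by 2-fold or more. An exact palindrome of the estrogen response element (GGTCANNNTGACC) lay in 6 of the 15563 genes' windows, and in none of the 296 genes with a window that rose or the 222 that fell by 2-fold or more. An AP-1 site (TGANTCA, bound by Fos and Jun proteins) lay in 14.2% of the genes that rose 2-fold and in 4.05% of those that fell 2-fold, against 8.06% of all genes with a window. It lay in none of the mitosis, replication or nucleolar genes with a window. The progesterone response palindrome (GNACANNNTGTNC) lay in 3 of the 296 and in none of the 222. GC boxes (GGGCGG) lay in 47.3% and 68.0%, against 53.0% of all. Olfactory receptor genes held an AP-1 site in 121 of 866 cases and a GC box in 1.04%, so that these shares differ between kinds of promoter without any E2 effect. The 3 promoter stretches below are from genes with some of the largest rises (Aoc1 at 5.61, Mmp7 at 3.65 and Sprr2b at 3.60), with the AP-1 letters in capitals. They were chosen after the values were seen and because they hold an AP-1 site. Their places are chr6:48904736-48904985 for Aoc1, chr9:7691840-7692089 for Mmp7 and chr3:92316455-92316704 for Sprr2b, all on the plus strand of GRCm38.p6. The Aoc1 stretch precedes a start inside the gene, whose first base is at 48895255.
Aoc1: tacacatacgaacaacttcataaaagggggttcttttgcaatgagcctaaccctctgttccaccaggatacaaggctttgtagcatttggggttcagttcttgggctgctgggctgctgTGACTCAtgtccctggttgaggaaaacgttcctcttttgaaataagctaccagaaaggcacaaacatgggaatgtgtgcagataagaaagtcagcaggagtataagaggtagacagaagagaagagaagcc
Mmp7: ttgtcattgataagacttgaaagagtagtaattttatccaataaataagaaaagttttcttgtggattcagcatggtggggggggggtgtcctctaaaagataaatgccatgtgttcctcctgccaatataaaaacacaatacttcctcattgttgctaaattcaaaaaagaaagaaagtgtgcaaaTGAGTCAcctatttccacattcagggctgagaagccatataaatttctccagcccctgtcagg
Sprr2b: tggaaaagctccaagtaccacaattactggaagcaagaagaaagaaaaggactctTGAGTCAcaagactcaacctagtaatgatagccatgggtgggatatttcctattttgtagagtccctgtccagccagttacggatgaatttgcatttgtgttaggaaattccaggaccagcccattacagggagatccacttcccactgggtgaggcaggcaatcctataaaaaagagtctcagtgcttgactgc
Each holds 1 AP-1 match.

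**Figure D4:**
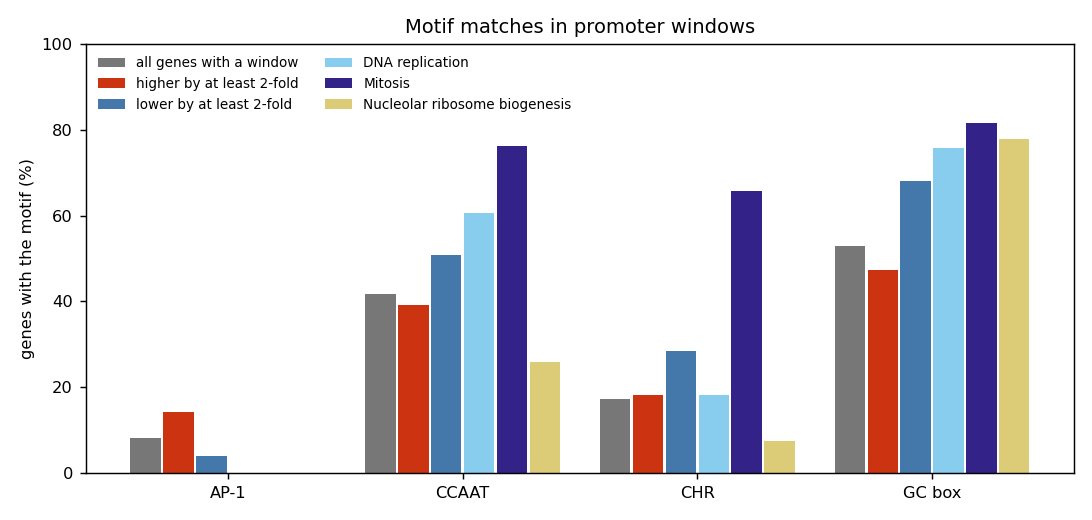
Share of genes with at least 1 match of 4 motifs in the RefSeq promoter window (vertical axis, percent) for all genes with a window, genes higher or lower by 2-fold or more after E2, and 3 gene lists. CHR and CCAAT shares are highest in the mitosis list at 65.8% and 76.3%, and AP-1 shares are 14.2% for genes that rose and 4.05% for genes that fell.

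In the hedgehog pathway the epithelial ligand Ihh binds the stromal receptor Ptch1, which frees the Gli transcription factors, and Ptch1, Gli1 and Hhip are themselves induced by the signal. Of 14 genes of the axis 8 fell (57.1%, against 14.3% of all genes) and none rose. The ligand Ihh read 7.58, 7.45 and 7.40 in oil and 6.90, 6.65 and 6.36 after E2 (difference -0.84, SE 0.19, adjusted p = 0.0068). The receptor Ptch1 read 9.85, 9.94 and 9.83 in oil and 8.16, 8.35 and 8.24 after E2 (difference -1.62, SE 0.08, adjusted p = 2.3e-07). The pathway's readouts Gli1 and Hhip fell by 1.87 (SE 0.11) and 2.25 (SE 0.28), and the stromal factor Hand2, which restrains growth factor output, by 0.66 (SE 0.08). Ligand, receptor and readouts thus all lay lower on every E2 array than on any oil array. For Ihh and Hhip the E2 means were below 7.5, where the size of a fold is uncertain.

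Of 12 genes of the insulin-like growth factor family 3 rose and 5 fell (66.7%, against 26.7% of all genes). Igf1, made by the stroma and a mitogen for the epithelium, read 10.67, 10.84 and 10.67 in oil and 9.55, 9.52 and 9.63 after E2, a fall of 1.16 (SE 0.11, adjusted p = 2.0e-05). Its binding proteins Igfbp4 and Igfbp3 fell by 0.91 and 0.90, whereas the receptor Igf1r rose by 0.55 (SE 0.09) and Igfbp5 by 0.68 (SE 0.08). Of 15 genes of the EGF family 7 rose and 1 fell (53.3%). The receptor partners Erbb4, Erbb3 and Erbb2 rose by 1.28, 1.18 and 0.73, and the ligands Hbegf, Btc and Nrg1 by 0.58, 0.57 and 0.50. The one that fell was the founding receptor Egfr, from 9.66, 9.72 and 9.66 to 8.89, 8.97 and 9.16 (difference -0.67, SE 0.08). The receptor of leukemia inhibitory factor, Lifr, rose from 7.62, 7.62 and 7.68 to 9.25, 9.23 and 9.55 (difference 1.71, SE 0.10). The cytokine Lif itself, which permits implantation, read 6.31, 5.80 and 7.11 in oil and 5.72, 5.70 and 5.79 after E2, and its difference of -0.67 (SE 0.24, adjusted p = 0.057) did not pass.

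Among BMP and activin genes 8 rose and 8 fell of 39 (9 and 5 without the third oil array). The called share was 41.0%, against 26.7% of all genes. Follistatin (Fst), which binds activin, read 9.35, 9.40 and 9.34 in oil and 7.31, 7.10 and 7.38 after E2, a fall of 2.10 (SE 0.10, adjusted p = 1.6e-07), and the activin subunit Inhbb rose by 1.28 (SE 0.18). Bmp7 fell by 0.98 and the BMP receptor Bmpr1b rose by 1.13. Of 19 Wnt ligands Wnt7a, Wnt4 and Wnt7b rose by 0.98, 0.57 and 0.46 and none fell, a share of 15.8% against 12.4% of all genes. The enzyme Porcn, which acylates all Wnts, rose by 1.05 (SE 0.08) and the Wnt enhancer Rspo1 by 0.94. The Wnt-responsive factor Lef1 fell from 8.02, 8.19 and 8.43 to 6.39, 6.43 and 6.46 (difference -1.78, SE 0.11).

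Of 38 Hox genes, which pattern the reproductive tract, 6 rose and 6 fell, a share close to the 26.7% of all genes. The 6 that rose (Hoxc6, Hoxb5, Hoxc5, Hoxb4, Hoxb6 and Hoxb3, by 0.24 to 0.85) were all among the 19 genes with paralogue number 7 or lower. The 6 that fell (Hoxd11, Hoxa11, Hoxd8, Hoxd9, Hoxa10 and Hoxd10, by 0.56 to 0.98) were all among the 18 with number 8 or higher, and this split was chosen after the values were seen. Hoxb6, Hoxb3 and Hoxd10 lost the call when 1 or another uterus array was left out. Hoxd11 read 9.39, 9.54 and 9.66 in oil and 8.52, 8.56 and 8.55 after E2 (difference -0.98, SE 0.13). Hoxa10 and Hoxa11, which uterine stroma needs for decidualization, fell by 0.57 and 0.92. Of 28 epithelial transcription factors 11 rose and none fell, led by the ETS factor Elf3, which read 7.53, 7.02 and 7.23 in oil and 9.74, 9.63 and 10.15 after E2 (difference 2.58, SE 0.15).

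Genes of epithelial cell contacts held several rises. Of 20 genes of tight junction scaffolds and desmosomes 15 rose and none fell (median 0.59). Desmoplakin (Dsp) read 7.72, 7.49 and 7.64 in oil and 8.95, 8.91 and 9.12 after E2 (difference 1.38, SE 0.16, adjusted p = 7.4e-05). The scaffold Tjp3 rose by 1.30 (SE 0.10), the desmosomal protein Perp by 1.33 (SE 0.13) and the epithelial adhesion protein Epcam by 1.12 (SE 0.07). Epcam is also a general marker of epithelial cells, and of 14 luminal epithelium markers 12 rose and 1 fell (median 1.04), with list means of 8.15, 7.91 and 8.06 in oil and 9.37, 9.36 and 9.43 after E2. Of 8 gland epithelium markers 1 rose and 3 fell (median -0.59), with the third oil array displaced by 0.58, and without it none rose and 3 fell (median -0.17). All 7 markers of oviduct secretory epithelium rose (median 1.24). The lists are not independent, as this one shares Krt7 with the luminal list and holds Lcn2, named above among the rises. The luminal list likewise holds Ltf, Muc1 and Elf3. Claudins, the strand proteins of the tight junction, had 5 rises in 28 (17.9%, against 12.4% of all genes) with Cldn10 and Cldn7 at 1.26 and 0.82. Integrins had 10 rises in 31 (32.3%) with Itgb6, an epithelial subunit, at 1.64 (SE 0.08). Of 11 stroma markers 7 fell and none rose (median -0.30), with the peptidase Mme at -1.15 (SE 0.14) and list means of 10.60, 10.62 and 10.61 in oil and 10.16, 10.23 and 10.23 after E2. Of 8 myometrium markers 2 rose, and without the third oil array, in which all 8 were higher (median displacement 0.52), 7 rose. What part a change in the mix of cells had in the gene groups of each layer was not tested.

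Cell surface mucins rose, and the enzymes that add their sugars split evenly. Muc4 read 5.94, 6.05 and 5.99 in oil and 10.05, 9.86 and 10.04 after E2 (difference 3.99, SE 0.22, adjusted p = 3.8e-07). Muc20, Muc1 and Muc13 rose by 2.83, 2.55 and 0.99, so that 4 of 12 measured mucins rose (33.3%, against 12.4% of all genes) and none fell. Of 65 glycosyltransferases of mucin-type chains 14 rose and 14 fell (43.1%, against 26.7% of all genes). Fut9, which adds the fucose of the Lewis X epitope, read 5.48, 5.33 and 5.43 in oil and 8.61, 8.43 and 8.96 after E2 (difference 3.26, SE 0.12). Fut2, which makes the H antigen, rose by 1.03, and the chain-starting enzymes Galnt3 and Galnt7 by 1.93 and 0.92. The sialyltransferase St6gal2 fell by 1.91 (SE 0.18) and B3gnt5, which starts lactoseries glycolipids, by 1.48 (SE 0.26).

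Proteases of the epithelial surface and their inhibitors both had rises. Matriptase (St14), a membrane serine protease, read 8.28, 8.13 and 7.92 in oil and 9.44, 9.49 and 9.58 after E2 (difference 1.39, SE 0.09). Its inhibitors Spint2 and Spint1 rose by 1.14 (SE 0.07) and 0.99 (SE 0.14). In all, 11 of 57 membrane serine proteases and relatives rose and 1 fell (21%, against 26.7% of all genes). Of 24 proteins with whey acidic protein or Kunitz domains 8 rose and 3 fell (45.8%). The largest fall there was that of the stromal inhibitor Wfdc1, from 9.85, 9.70 and 9.76 to 7.96, 7.89 and 7.89 (difference -1.86, SE 0.11). Of 22 matrix metalloproteases 5 rose and 2 fell (8 and 1 without the third oil array), with Mmp11 at 2.15 (SE 0.09). Their called share was 31.8%, close to the 26.7% of all genes. Of 20 lysosomal cathepsins and relatives 10 rose and 1 fell: cathepsin S (Ctss) rose by 1.24 and cathepsin L (Ctsl) by 0.96, while cathepsin D (Ctsd) fell by 0.75 (SE 0.10) from 12.15, 11.90 and 12.00. Proton pump subunits of the same compartment rose in 8 of 24 cases (33.3%, against 12.4% of all genes) and none fell.

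Hyaluronan is a sugar polymer of the stromal matrix. Among its 14 measured genes Has2 and Vcan had the largest falls. Has2, which makes hyaluronan, read 8.38, 8.47 and 8.65 in oil and 5.82, 5.85 and 6.17 after E2 (difference -2.56, SE 0.13, adjusted p = 2.2e-07). Versican (Vcan), the large proteoglycan that binds it, read 10.02, 10.09 and 10.18 in oil and 7.90, 7.91 and 8.37 after E2 (difference -2.04, SE 0.14). The receptor Cd44 fell by 1.07, and the linking proteins Tnfaip6 and Hapln1 by 0.88 and 0.83. The hyaluronidase Cemip and the chain-binding protein Itih5 rose by 0.79 and 0.83. In all, 5 of 14 genes fell and 3 rose (median -0.10). Of 44 collagen genes 9 fell and 1 rose, and 6 fell without the third oil array. The called share of 22.7% was below the 26.7% of all genes, and the collagen median was 0.004. Col14a1, a fibril-associated collagen, fell by 0.95 (SE 0.07), and the riser Col6a4 rose by 1.79 (SE 0.28).

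Of 362 solute carriers 67 rose and 38 fell, together 29.0%, close to the 26.7% of all genes. The iron exporter ferroportin (Slc40a1) read 6.78, 6.86 and 6.29 in oil and 10.14, 10.05 and 10.37 after E2 (difference 3.54, SE 0.17, adjusted p = 1.4e-07). The fatty acid transporter Slc27a2 rose by 3.17 (SE 0.23), the cystine importer Slc7a11 by 3.16 (SE 0.23), the phosphate transporter Slc34a2 by 3.06 (SE 0.15) and the urea transporter Slc14a1 by 2.56 (SE 0.13). Downward, the noradrenaline transporter Slc6a2 changed by -2.25 (SE 0.34) and the inositol transporter Slc5a11 by -2.20 (SE 0.24). Of 28 genes of zinc, iron and copper handling, ferroportin included, 10 rose and 7 fell (median 0.02). The metalloreductase Steap1 rose by 2.53 (SE 0.19) and the ferroxidase ceruloplasmin (Cp) by 1.38 (SE 0.12). Another metalloreductase, Steap4, fell by 1.28 (SE 0.13), and the metal-binding Mt2 by 0.77. Steap2 rose by 2.20 on its brighter probe set, but its other probe set did not share that sign. Among potassium channels Kcnn4 and Kcnq1 rose by 1.18 and 1.13, and Kcnd3 and Kcnd2 fell by 1.65 and 1.42.

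Enzymes of arginine, polyamines and histamine changed in both directions, with 5 higher and 7 lower of 17. Arginase (Arg1) read 5.13, 4.95 and 5.04 in oil and 8.87, 8.04 and 9.14 after E2 (difference 3.64, SE 0.26, adjusted p = 1.8e-06). Spermidine synthase (Srm) read 10.10, 10.03 and 10.24 in oil and 8.32, 8.43 and 8.46 after E2 (difference -1.72, SE 0.09). Histidine decarboxylase (Hdc), which makes histamine, read 10.28, 9.76 and 9.84 in oil and 8.16, 8.43 and 8.03 after E2 (difference -1.76, SE 0.16). Both synthetic enzymes fell, while 3 enzymes of the opposite direction rose: Aoc1 by 5.61, the spermidine acetyltransferase Sat1 by 0.91 (SE 0.08) and the histamine methyltransferase Hnmt by 0.41 (SE 0.10). On the nitric oxide side Ddah1 fell by 2.75, the arginine-making lyase Asl by 1.18 and the endothelial synthase Nos3 by 0.58.

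The vessel markers separated. Of 10 blood endothelium markers 8 fell and 2 rose (median -0.53), and of 5 lymphatic markers 4 rose and none fell (median 0.49). VE-cadherin (Cdh5) read 10.53, 10.76 and 10.31 in oil and 9.57, 9.67 and 9.51 after E2 (difference -0.95, SE 0.11, adjusted p = 6.1e-05), and Esam, Eng and the VEGF receptor Kdr fell by 0.78, 0.72 and 0.64. The lymphatic regulator Prox1 read 6.29, 6.34 and 6.35 in oil and 6.78, 7.10 and 7.02 after E2 (difference 0.64, SE 0.13, adjusted p = 0.0031). The other 3 lymphatic rises (Lyve1, Mmrn1 and Flt4, by 0.35 to 0.51) and both blood endothelial rises (Vwf and Cldn5, by 0.41 each) were no longer called when 1 or another uterus array was left out. Of 24 angiogenic signals and receptors 11 fell and 3 rose, among them Nrp1 at -0.64 and the adrenomedullin receptor partner Ramp3 at 1.13.

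Innate immune lists held more rises than falls. Of 22 complement genes 12 rose and none fell (median 0.44), and of 10 macrophage markers 8 rose and none fell (median 0.72), with Cd68 at 1.22 (SE 0.16) and Csf1r at 1.12 (SE 0.14). The macrophage list averaged 7.93, 7.81 and 7.67 in oil and 8.55, 8.44 and 8.61 after E2, and its part in the other immune lists was not tested. Of 11 neutrophil markers 2 rose (18.2%, against 12.4% of all genes), Ltf and Ly6g, and uterine epithelium makes Ltf too. Interferon-stimulated genes rose in 16 of 26 cases and 1 fell (median 0.83). Mx1 rose from 5.49, 5.50 and 5.28 to 7.05, 7.17 and 7.33 (difference 1.76, SE 0.20). The third oil array was lower than the other oil arrays in 24 of the 26 genes (median displacement -0.45). Without it 17 rose, 1 fell and the median was 0.55. The part of that array in the counts was otherwise not tested. Natural killer receptors and granzymes had 8 rises in 35 genes and no falls, with the same array displaced by -0.29. Their called share was 22.9%, where 12.4% of all genes rose and 26.7% were called. Without that array 8 rose and 3 fell. These receptors belong to clusters of near-identical genes, as do the Ms4a, Ly6, Sprr2, Gstm and MHC genes, and their probe sets may read more than 1 gene.

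Of 22 cytokine genes 6 rose and 2 fell (median 0.02), and of 34 chemokine genes 6 rose and 2 fell (median 0.09). These calls made up 36.4% and 23.5% of the lists, against 26.7% of all genes. Interleukin 1α (Il1a) read 3.83, 3.96 and 4.10 in oil and 7.32, 6.81 and 8.31 after E2 (difference 3.52, SE 0.31, adjusted p = 1.1e-05). Relatives of the interleukin 36 branch rose too: Il1f8 by 3.19 (SE 0.18), Il1f6 by 2.30 (SE 0.23) and Il1f9 by 1.84 (SE 0.17). These 3 lie next to each other on chromosome 2, 1 of the longest runs of measured neighbours that all rose by 2-fold or more. Another was a run of 4 on chromosome 19 (Ms4a7, Ms4a4a, Ms4a4c and Ms4a4b, by 1.06 to 1.54), and Maoa, Maob and Ndp on the X chromosome formed a run of 3 that fell by 1.05 to 2.68. The mucosal chemokine Ccl28, which draws antibody-secreting cells, read 6.36, 7.10 and 6.42 in oil and 10.29, 9.69 and 9.91 after E2 (difference 3.34, SE 0.32), and Cxcl17 rose by 2.79 (SE 0.19). The chemokine Cxcl15 fell by 2.76 (SE 0.35). Toll-like receptors Tlr4 and Tlr7 rose by 0.84 and 1.01, yet the adaptor that serves most of them, Myd88, fell from 10.60, 10.08 and 10.33 to 8.91, 8.92 and 9.05 (difference -1.37, SE 0.18).

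Retinoid genes were mixed, with 6 higher and 4 lower of 22 (45.5%, against 26.7% of all genes). The retinol uptake receptor Stra6 read 9.41, 9.59 and 9.30 in oil and 7.49, 8.16 and 7.72 after E2 (difference -1.64, SE 0.17), and the retinoic acid-making Aldh1a2 fell by 0.80. The storage enzyme Lrat rose by 1.28 (SE 0.26) and the binding protein Crabp2 by 1.20 (SE 0.18). Prostaglandin genes showed 6 rises and 5 falls in 21, with the inducible synthase Ptgs2 at 1.08 (SE 0.21) and the prostaglandin F receptor Ptgfr at -1.13 (SE 0.15). Of 22 glutathione transferases 9 rose and 9 fell (81.8%, median 0.19). Gstt2, Gsto1 and Gsta3 rose by 1.53, 1.38 and 1.21, and Gstm2 and Gstm1 fell by 0.99 and 0.75. The third oil array was lower than the other oil arrays in 17 of the 22 (median displacement -0.23), and without it 10 rose, 9 fell and the median was 0.05.

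Gene families with no role in uterus were counted for comparison. Their median oil levels were low: 4.07 for olfactory, 3.34 for vomeronasal, 5.13 for hair keratin-associated and 3.98 for taste and trace amine genes. Few calls at such levels cannot show how often expressed genes are called without a change. Of 1027 olfactory receptor genes 11 rose and 3 fell, none by 2-fold, and of 163 vomeronasal receptors 2 rose and 1 fell. Neither 44 hair keratin-associated genes nor 50 taste and trace amine receptor genes had a call. Of 13 reference genes 1 passed, Hprt at -0.48 (SE 0.07). Markers of fat differed on 1 array. The adipocyte genes Fabp4, Adipoq and Retn read 8.61, 7.85 and 9.07 on the third E2 array, above every other uterus array, and none of 6 adipocyte markers passed. Immediate early genes, which respond to handling, were higher in the third oil array in 22 of 24 cases (median displacement 0.59), and 1 rose and 1 fell after E2.

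The uterine E2 effect was set against the effect in the oviducts given the same 2 treatments. In oviduct 58 genes passed (0.291%), and the difference between the 2 effects passed for 2288 genes (11.5%). By the same measure the third oil oviduct array stood off for 302 genes, the most of all 12 arrays. Without it the difference passed for 1293 genes upward and 1228 downward, against 1138 and 1150 with it, and its part in the oviduct count was not tested. The uterine effect was further from the oviductal one in its own direction for 347 of the 405 genes that rose and 228 of the 281 that fell by 2-fold or more. Of the DNA replication genes 32 of 40, of mitosis genes 21 of 48 and of junction genes 16 of 20 had a different effect in uterus. Not every large uterine change did so. The membrane dipeptidase Dpep1 rose by 1.68 in uterus (8.15, 8.75 and 8.19 in oil, 10.10, 9.98 and 10.04 after E2) and by 1.73 in oviduct, and Slc5a11 fell by 2.20 and 2.05. The glycolipid enzyme B3gnt5 fell by 1.48 and 1.47. The secreted inhibitor Wfdc2 moved in opposite directions, by 1.18 in uterus and -0.95 in oviduct, with both effects past the test.

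**Figure D5:**
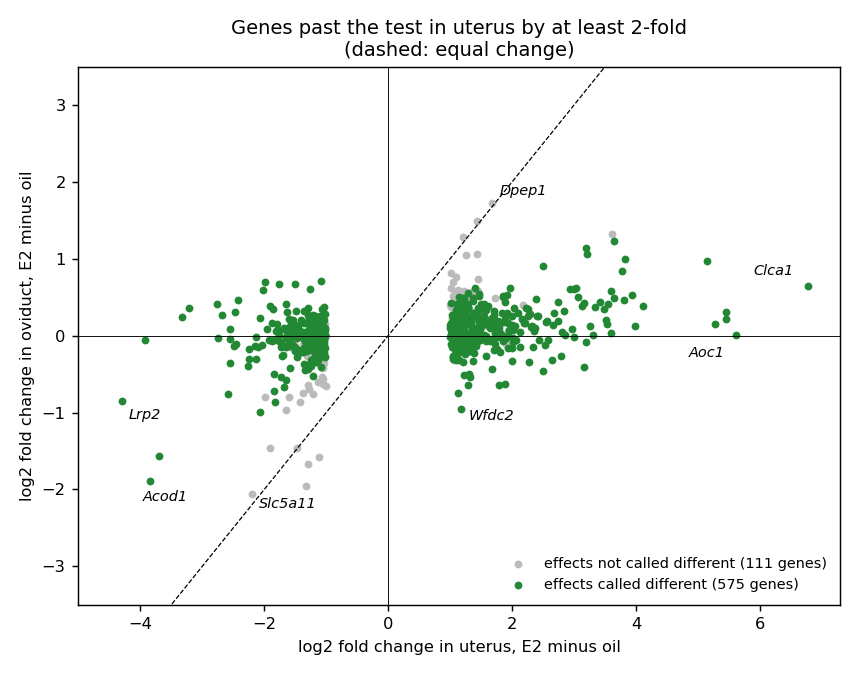
Log2 fold change in uterus (horizontal axis) against that in oviduct (vertical axis) for the 686 genes that passed in uterus by 2-fold or more; green marks the 575 genes whose effects were called different and grey the 111 others, and the dashed line marks equal change. Most points lie along the horizontal axis, with Dpep1 and Slc5a11 near the dashed line.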

How the data were processed

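RNA from flushed uterine horns and from oviducts was hybridised to 12 Affymetrix mouse gene arrays, 3 per tissue and treatment. The authors' deposited values are probe set intensities on a linear scale, made with RMA per the submitters' processing notes; the version and whether all arrays were normalized together are not stated in the labels or headers. Log2 was taken of the values (lowest intensity 1.52). Of 35556 probe sets 21789 had 1 gene symbol in the platform annotation, 1621 several and 12146 none; genes with several probe sets (999) were read on the one with the highest mean over the 12 arrays, leaving 19938 genes.

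The 4 groups were fitted in one linear model (limma 3.58.1, R 4.3.3) with empirical Bayes variances (residual df 8, prior df 3.49), so the standard error pools the spread of both tissues. On simulated data for the uterine comparison (19938 genes) 63% of 100 genes changed by 0.5 on the log2 scale and 92% of 100 changed by 1 were recovered, with 9 unchanged genes called. No other genes were changed and the noise was independent between genes. These shares need not hold for the real data, in which 26.7% of genes were called and 1 oil array stood apart. Genes named in the text are, in each direction, the 20 with the largest change among those that passed without overlap, the 15 largest with both means at log2 8 or above, the 10 with the largest t, up to 6 per gene list, 10 genes of uterine hormone biology and the 5 longest runs of neighbouring genes with 2-fold changes. Members, lists and rules were chosen with earlier results of these data known. Motifs were searched on both strands in RefSeq promoter windows. Alternatives covered the genes tested, probe sets, scaling, log offset, variance model, array weights, replicate block and each array left out. Some genes are not reported here.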

Additional observations from a re-analysis of the deposited data

Results flagged for a closer look

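The difference between the uterine and the oviductal E2 effect passed limma's interaction test for 2288 genes. For 8 genes both effects passed and ran in opposite directions. The uterine minus oviductal log2 difference was 2.13 for Wfdc2, 0.93 for the phospholipase Pla2g5 and 0.78 for the claudin Cldn4, which rose in uterus and fell in oviduct. It was -0.85 for Rassf5, -1.22 for Acsf2, -1.82 for the peptide hormone gene Apela, -1.79 for the adhesion receptor Adgrg2 and -2.18 for Gulo, the last enzyme of vitamin C synthesis, which fell in uterus and rose in oviduct.

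Among the 13767 probe sets with several or no gene symbols, which enter no comparison above, 1254 passed the uterine test when all 35556 probe sets were fitted together. Of these 602 were higher and 652 lower, 75 and 41 of them by 2-fold or more, with changes from -2.40 to 3.70.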

How the results depend on the processing

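No gene called in the reported fit changed sign in any alternative. Array weights raised the genes higher after E2 from 2478 to 4019, those lower from 2854 to 4195, and those with a different uterine effect to 2345 in the upward and 2186 in the downward direction. Adding 50 to the intensity lowered the 2-fold counts to 220 higher and 135 lower. Testing only the 7632 genes with a mean log2 of at least 7.5 gave 1627 higher genes, and 206 higher and 111 lower by 2-fold. With 1 array left out the counts ran from 1952 to 2745 higher, 2172 to 3142 lower, 364 to 431 higher and 245 to 330 lower by 2-fold, and 842 to 1293 and 729 to 1228 for the difference between tissues; the low counts of 729 and 760 came without the third E2 oviduct and the first E2 uterus array. With the replicate number as a block the counts were 2471 higher and 2847 lower. Uterus arrays with the same number had deviations that correlated at 0.188, -0.0119 and -0.0571 between treatments. Between tissues they correlated at 0.00454, 0.0472 and 0.262 for oil and at 0.264, 0.0264 and 0.0336 for E2. Not every pair exceeded 0.1, and the numbers were not taken to pair the samples. With the block the difference between tissues passed for 1115 genes upward and 1103 downward. Of the 662 named genes that passed, 135 lost the call under at least 1 alternative, 129 of them with 1 uterus array left out. The 3 arrays per group limit the precision, and levels near the Y-linked background limit the folds.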
